A study of Bos taurus with 8 samples.

Results

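The lysosomal genes described here are 37 genes that encode digestive enzymes, membrane proteins and the acidification machinery of the lysosome. They were chosen by name, as the array probes whose gene name in the scanner files is one of the 37, with the brightest probe taken for each gene. Of the 37, 36 had a probe named so, and all 36 were among the 12035 genes that could be tested, out of 17042 genes named on the array. The study measured total RNA of cultures given as primary bovine Müller glia, the radial glial cells of the retina, with 1 dye and 1 Agilent bovine expression array per sample. The cells came from bovine eyes and had been in culture for 18 to 21 days. Per the titles, 3 cultures received recombinant HIV-1 TAT, the viral transactivator protein (100 ng/ml, replicates A, B and C), 3 received HIV-1 gp120, the viral envelope glycoprotein (60 ng/ml, replicates A, B and C), and 2 were controls (replicates A and B). RNA was collected after 24 h. The treatment text is the same for every sample and names both proteins, the extraction text calls the cells astrocytes, and nothing says what the replicate letters mark, so that each p-value reflects no more than the spread among these cultures, which may be technical.

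Lysosomes break down proteins, glycans and lipids that arrive by endocytosis, phagocytosis or autophagy. The vacuolar proton pump (V-ATPase) acidifies the lumen, in which the hydrolases work, and the transcription factor TFEB switches on many of these genes together. TAT enters cells by endocytosis and passes through this compartment, and Müller glia are known to take up debris in the retina. Roles given below are those known for the mammalian genes.

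Levels are log2 processed signals minus the log2 of the array's 75th percentile, so that a level of 0 is that percentile, and levels of different probes are not compared. Between 55.46% and 64.62% of the spots of an array were well above background, and 0 spots were saturated. The slide carried TAT A, Gp120 A and both controls in row 1, with the remaining 4 arrays in row 2. The detector was set to 471 V in the scan of Gp120 arrays B and C, against 431 V in the scan of the other 6. Of 12 Müller glia markers 7 were measurable, among them GLUL, SLC1A3 and VIM, while RLBP1, SOX2, KCNJ10 and CA14 were not well above background in any whole group and SOX9 had no probe. Of these 7, 1 had a higher mean with TAT than in Control (median difference -0.26) and 6 with gp120 (median 0.06), and their summed level (in multiples of the array's 75th percentile) was 352 to 392 on TAT arrays, 415 to 467 on Gp120 arrays and 338 to 484 on Control arrays. Of 16 microglia and macrophage markers 15 were measurable, and their summed level ran from 594 to 660 on TAT arrays, from 589 to 690 on Gp120 arrays and from 524 to 760 on Control arrays. All 7 measurable fibroblast markers of 8 had means above Control with each protein, with summed levels of 209 to 294 on TAT arrays, 154 to 198 on Gp120 arrays and 157 to 160 on Control arrays. Measurable markers of other cells were 4 of 5 for endothelium (all but CDH5), 3 of 6 for astrocytes (S100B, ALDH1L1 and GJA1, but not GFAP) and 3 of 7 for pigment epithelium (TTR, at a level of 5.54 to 7.67, PMEL and MLANA, but not RPE65). The part of other cells in the results below was not tested, and in bulk samples fewer cells of a type and less RNA per cell cannot be told apart.

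All 36 measured members were detected on every array with the chosen probe, against 10990 of the 12035 genes. Over the 8 arrays their levels moved by 0.39 (TFEB) to 2.56 (HEXA) log2 units. Of the chosen probes 34 had a position in the build of the files, HGSC Btau_3.1, and the position given for NAGLU lies on another chromosome than RefSeq has for that gene. One chosen probe, that of ATP6V1H, crosses an intron. It is shown because this regulatory subunit of the pump was the member with the smallest p between TAT and gp120 and has no second probe. It lies on the minus strand at chr14:21707175-21722258, its ends 15084 bases apart, and its 60 bases are 45% G and C.
ATP6V1H: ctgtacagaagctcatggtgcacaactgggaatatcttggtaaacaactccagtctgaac
The remaining listed gene, the cysteine protease CTSL, had no probe under that name. A probe that the files name CTSL1 carries the accession of CTSL in RefSeq, falls outside the rule, and was looked at after its values were seen. It stood at -3.23, -2.97 and 1.13 on TAT A, B and C, at -5.13, 0.29 and 1.14 on Gp120 A, B and C, and at -4.38 and -5.03 on Control A and B. It was bright on TAT C, Gp120 B and Gp120 C alone, and not well above background on Gp120 A. Group means were -1.69 ± 2.45 (SD, n = 3) with TAT, -1.23 ± 3.40 (SD, n = 3) with gp120 and -4.70 ± 0.47 (SD, n = 2) in Control.

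**Figure D1:**
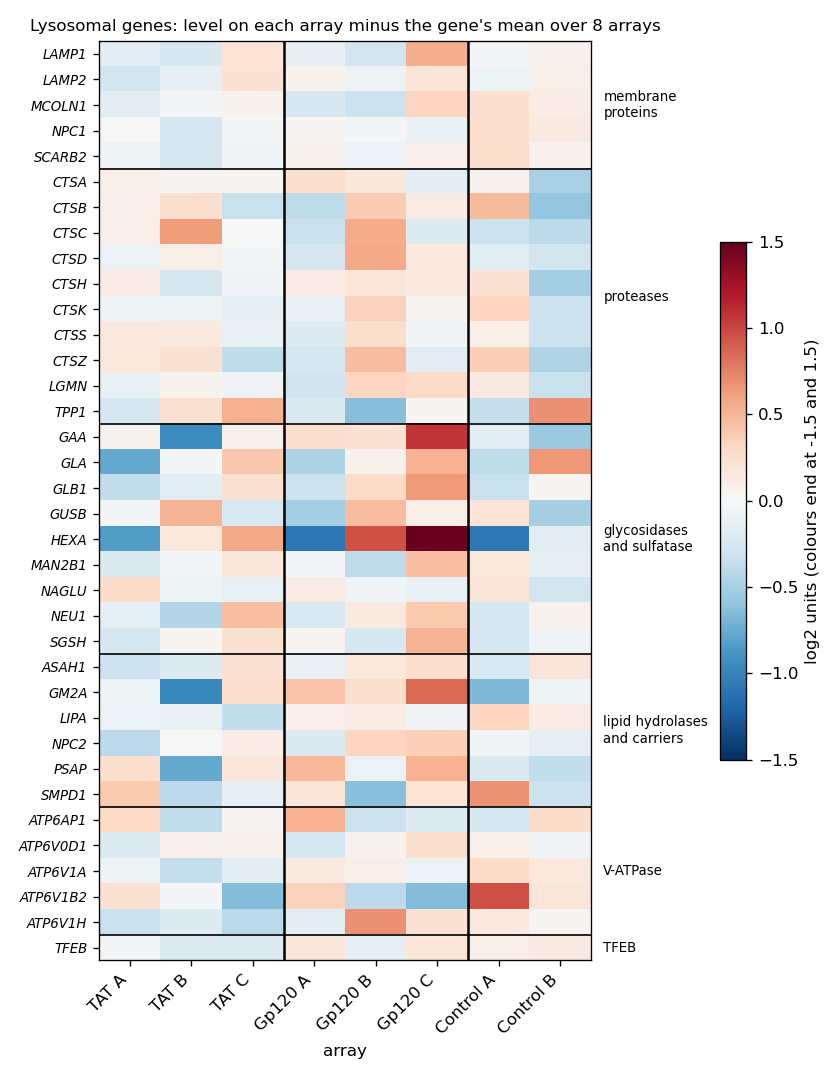
Heat map of the 36 measured lysosomal genes (rows, grouped by role) on the 8 arrays (columns, TAT, Gp120 and Control from left to right). Colour gives the log2 level minus the gene's own mean over the 8 arrays. The widest range belongs to HEXA, which lies low on all 3 letter A arrays. With the chosen probes shown, 9 of 10 proteases have their lowest level on Control B.

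The first question was what TAT did to the lysosomal genes. The pump subunits and the membrane proteins all had lower means on TAT arrays than on Control arrays with the chosen probes, while most proteases and glycosidases had slightly higher means. No member passed the threshold, an adjusted p of 0.05 over all genes: limma called 0 of 36 members and 0% of all genes, without and with the replicate letter as a block. Without the block 0 members reached an unadjusted p under 0.05 (1.31% of all genes). With the block 3 did, CTSC higher (1 member, against 2.3% of all genes) and GLA and ATP6V1B2 lower (2 members, against 2.48%). Over all members 19 of 36 had higher means on TAT arrays and the median log2 difference was 0.003, against -0.03 over all genes. With the block 13 of 36 were higher and the median was -0.13, against -0.05 over all genes. The median half-width of a member's 95% interval was 0.62 log2 units, and 0.49 with the block.

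Of the 5 V-ATPase members all 5 had negative TAT minus Control differences (median -0.40), although 54.5% of all genes did. ATP6V1A, the catalytic subunit that hydrolyses ATP, stood at 5.75, 5.46 and 5.66 on TAT A, B and C and at 6.11 and 5.97 on Control A and B. All 3 TAT arrays lay below both Control arrays. The log2 difference was -0.42 (SE 0.19, limma adjusted p = 0.999), the smallest p of any member in this comparison, and all 3 of its probes gave lower TAT means. On its other probes the groups overlapped, with differences of -0.52 and -0.23.

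ATP6V1B2, the nucleotide-binding subunit beside it, stood at 4.88, 4.62 and 4.00 on TAT arrays and at 5.62 and 4.83 on Control arrays. Control A was the highest array and TAT A overlapped Control B. Its difference was -0.72 (SE 0.41, adjusted p = 0.999), with 3 of its 4 probes lower, but -0.25 with slide row as a block and -0.09 in the deposited table. ATP6V1H stood at 3.51, 3.65 and 3.44 on TAT arrays and at 3.99 and 3.88 on Control arrays, without overlap. ATP6V0D1, which couples the membrane sector to the stalk, ran from 6.51 to 7.01 over the 8 arrays and ATP6AP1, an accessory subunit needed for assembly, from 3.66 to 4.56. Both had TAT minus Control differences near 0 (-0.06 and -0.04).

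The 12 other V-ATPase subunits on the array, which are not members, were also mostly lower. With TAT 11 of 12 had lower means, with a median of -0.38, and 0 passed the threshold. The smallest p-values were those of ATP6V1C1, a subunit of the stalk (-0.51, SE 0.19), and ATP6V0E1, a small membrane subunit (-0.50, SE 0.20). Over members and other subunits together 16 of 17 were lower with a median of -0.39. For 7 of the 17 all TAT arrays lay below both Control arrays (9.11% of all genes), and for 6 of the 17 all Gp120 arrays did (7.46% of all genes), against the same 2 Control arrays. Their median level, each gene taken relative to its own mean, was -0.03, -0.19 and -0.24 on TAT A, B and C, 0.06, 0.06 and -0.16 on Gp120 A, B and C, and 0.35 and 0.15 on Control A and B. Every TAT array thus had a lower median than both Control arrays. With the block 15 of 17 were lower (median -0.30), and within letters 14 of 17 in A (median -0.36) and 14 of 17 in B (median -0.23). Leaving out Control A with the block in the fit left 12 of 17 lower, the fewest of any setting tried, with a median of -0.30.

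**Figure D2:**
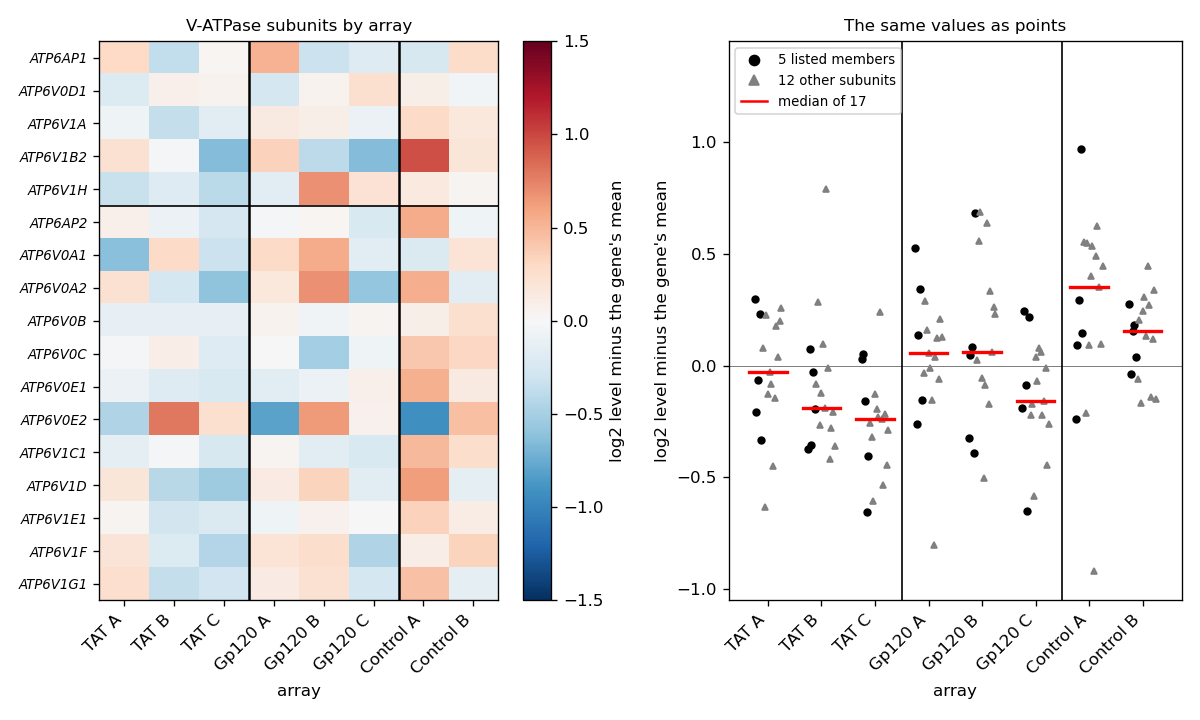
Levels of the 17 V-ATPase subunits on the 8 arrays, each minus the gene's mean, as a heat map (left, the 5 listed members above the line) and as points with the median of 17 as a red line (right, y axis in log2 units). The red lines of the 3 TAT arrays lie at -0.03 to -0.24, below those of Control A (0.35) and Control B (0.15).

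All 5 membrane proteins had lower TAT means with the chosen probe, with a median difference of -0.22. The second probe of LAMP1 gave 0.09, and the other probes of LAMP2 gave 0.11 and -0.29. NPC1, which exports cholesterol from the lysosome, ran from 4.24 to 4.75, SCARB2, which carries glucocerebrosidase to the lysosome, from 6.85 to 7.33, and MCOLN1, a calcium-conducting channel, from 3.53 to 4.17. In each of these 3 genes every TAT array lay below both Control arrays with the chosen probe. On both other probes of MCOLN1 and on another probe of NPC1 the groups overlapped. LAMP1, a heavily glycosylated protein of the limiting membrane, stood at 7.60, 7.53 and 7.98 on TAT arrays and at 7.75 and 7.84 on Control arrays, with a difference of -0.09 (SE 0.29, adjusted p = 0.999). TAT C lay above both Control arrays, so the groups overlapped. LAMP2, its relative with a part in chaperone-mediated autophagy, ran from 5.33 to 5.83 and overlapped too.

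TFEB, the factor that drives lysosomal gene transcription, stood at 3.70, 3.53 and 3.52 on TAT arrays and at 3.82 and 3.86 on Control arrays. The groups did not overlap, yet the difference was small, -0.26 (SE 0.19, adjusted p = 0.999), and the gene's other 2 probes were each well above background on only 7 of 8 arrays. Over all members 7 of 36 (19.4%) had every TAT array below both Control arrays, against 9.11% of all genes. These were ATP6V1A, ATP6V1H, LIPA, NPC1, SCARB2, MCOLN1 and TFEB. Another 2 of 36 (5.56%) had every TAT array above both, CTSC and CTSD, against 4.92% of all genes.

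Among proteases 9 of 10 had higher TAT means with the chosen probe, with a median difference of only 0.08. The other probes of CTSB, CTSH and CTSZ all gave lower TAT means, while those of CTSA, CTSC, CTSS, LGMN and TPP1 gave higher ones. CTSC, the dipeptidyl peptidase that activates serine proteases of immune cells, stood at 4.93, 5.48 and 4.84 on TAT arrays and at 4.52 and 4.46 on Control arrays. The groups did not overlap, and the difference was 0.59 (SE 0.32, adjusted p = 0.999). Its second probe gave 0.12, with groups that overlapped. CTSD, the main aspartic protease, stood at 7.44, 7.62 and 7.51 on TAT arrays and at 7.36 and 7.24 on Control arrays (difference 0.22, SE 0.26, adjusted p = 0.999). On its other probes the groups overlapped, with differences of 0.15 and -0.23.

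CTSB, a broadly acting cysteine protease, stood at 6.86, 7.03 and 6.45 on TAT arrays and at 7.26 and 6.20 on Control arrays. All TAT values lay between the controls, and the difference was 0.05 (SE 0.38, adjusted p = 0.999). CTSS, the cysteine protease that processes the MHC class II invariant chain in antigen-presenting cells, stood at 7.05, 7.05 and 6.80 on TAT arrays and at 6.99 and 6.57 on Control arrays, with a difference of 0.19 (SE 0.23, adjusted p = 0.999).

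With the chosen probes the proteases shared a pattern that follows 1 array: 9 of the 10 had their lowest level of all on Control B. The exception was TPP1, a tripeptidyl peptidase, which had its highest there (2.20). Other probes of the same genes often had their lowest level elsewhere. The second probes of CTSA, CTSC and CTSZ were lowest on Gp120 B (2.02), TAT A (3.17) and TAT B (5.55), and that of CTSS on Control B (4.30). The others by range were CTSA (6.41 to 7.14), CTSH (7.12 to 7.84), CTSK (7.18 to 7.85), CTSZ (6.50 to 7.42) and LGMN (6.69 to 7.34). The summed microglia and macrophage markers were lowest on Control B too, at 524, and highest on Control A, at 760. Most single markers were lower on Control B than on Control A, among them LAPTM5 (6.16 against 7.41). CD68, PTPRC, TREM2 and P2RY12 were higher there. The summed Müller glia markers had the same lowest and highest arrays, at 338 and 484, and the part of either in the protease values was not tested. Without Control B 4 of 10 proteases had higher TAT means (median -0.10), and without Control A 9 of 10 (median 0.42).

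Glycosidases and the sulfatase had higher TAT means in 7 of 9 cases (median 0.08), and with the block the median was -0.13. GLA, which removes galactose from glycolipids, stood at -0.69, 0.05 and 0.48 on TAT A, B and C and at -0.31 and 0.72 on Control A and B. TAT minus Control was negative in both letters that have a control, -0.39 in A and -0.68 in B. The block difference was -0.52 (SE 0.18, adjusted p = 0.937), against -0.26 (SE 0.46, adjusted p = 0.999) without it. MAN2B1 (6.0 to 6.83), NAGLU (3.57 to 4.13), NEU1 (3.87 to 4.75), GUSB (4.56 to 5.59), GLB1 (4.84 to 5.86) and SGSH (3.87 to 4.63), which cleave mannose, N-acetylglucosamine, sialic acid, glucuronic acid, galactose and sulfate, overlapped between TAT and Control.

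Lipid hydrolases and carriers were split, 3 of 6 higher (median -0.04). LIPA, the acid lipase that frees cholesterol from its esters, stood at 6.51, 6.49 and 6.23 on TAT arrays and at 6.92 and 6.72 on Control arrays. The groups did not overlap, the difference was -0.41 (SE 0.19, adjusted p = 0.999), and all 4 of its probes had lower TAT means. Its other probes gave -0.62, -0.34 and -0.02, with groups that overlapped on those of -0.34 and -0.02. ASAH1, the acid ceramidase, ran from 5.93 to 6.50 and NPC2, which hands cholesterol to NPC1, from 6.43 to 7.18, with TAT means close to Control (differences of -0.08 and 0.002).

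**Figure D3:**
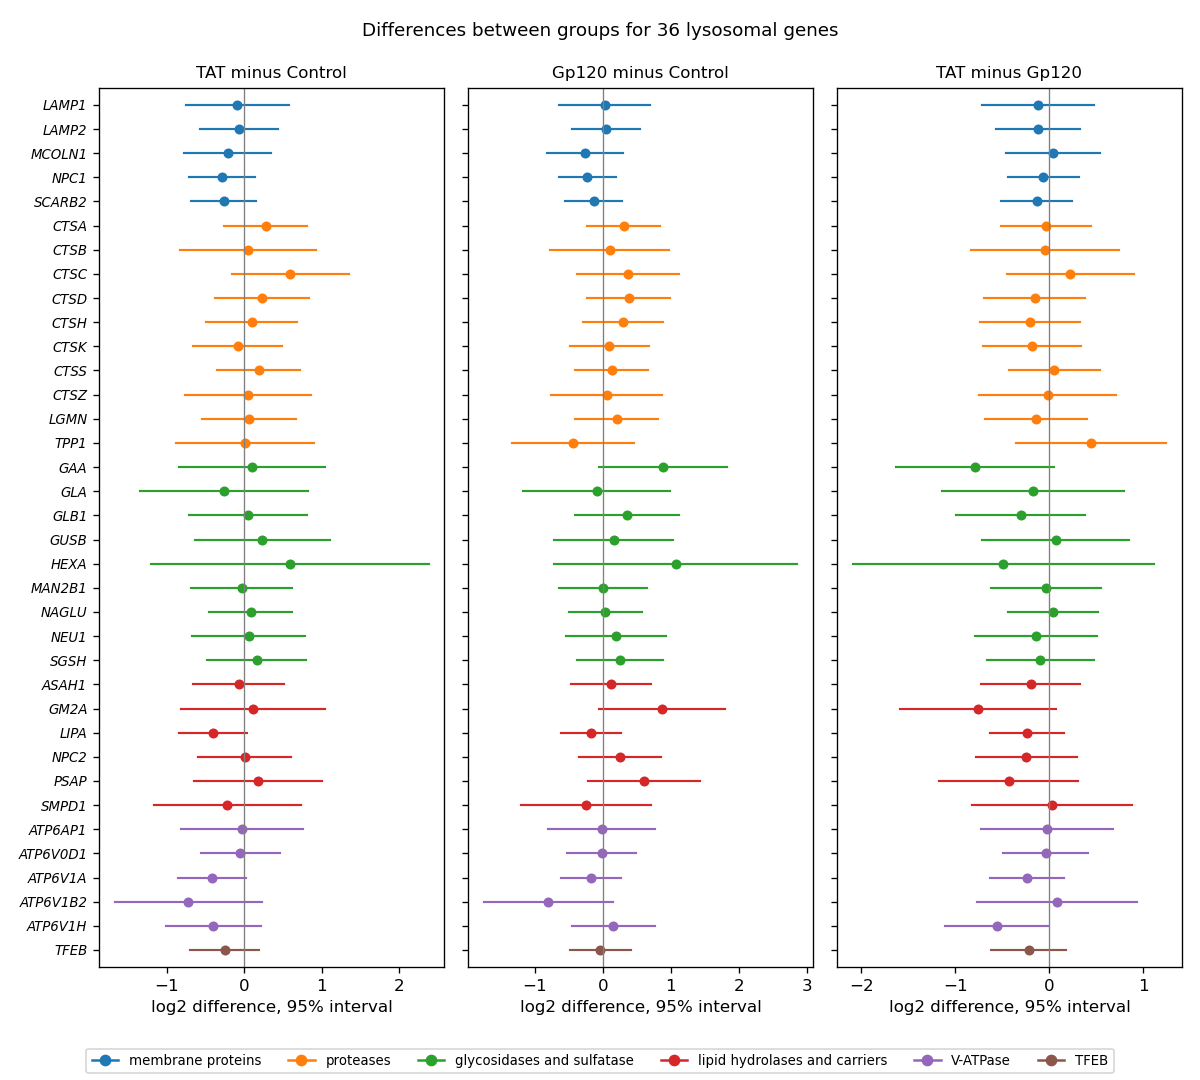
Log2 differences with 95% intervals (horizontal lines) for the 36 lysosomal genes, coloured by role, in TAT minus Control (left), Gp120 minus Control (middle) and TAT minus Gp120 (right). All 5 membrane proteins, all 5 pump subunits and TFEB lie left of 0 in the left panel, and nearly every interval crosses 0, that of ATP6V1H in the right panel (-1.11 to -0.01) being the exception.

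The second question was what gp120 did. Most enzymes had higher means on Gp120 arrays than on Control arrays, 9 of 10 proteases (median 0.17), 8 of 9 glycosidases and sulfatase (median 0.19) and 4 of 6 lipid hydrolases and carriers (median 0.18), while 4 of 5 pump subunits had lower ones. The protease count again rests on Control B: 2 of 10 were higher in the letter A pair (median -0.19), 9 of 10 in the letter B pair (median 0.68), and 4 of 10 without Control B (median -0.05). With the block the medians were 0.10 for glycosidases and sulfatase (6 of 9 higher) and 0.07 for lipid hydrolases and carriers. limma called 0 of 36 members and 0% of all genes without and with the block. At an unadjusted p under 0.05 it gave 0 members without the block (2.83% of all genes) and 2 with it, GAA higher (2.33% of all genes) and ATP6V1B2 lower (3.66%). In all 24 of 36 members were higher, with a median of 0.10 against -0.01 over all genes, and 21 of 36 with the block (median 0.10). Within letters 12 of 36 were higher in A (median -0.10, 46.6% of all genes higher) and 20 of 36 in B (median 0.16, 47.1%). Of the 36 members 6 were higher in both pairs, against 20.3% of all genes, and 10 lower in both, against 26.7%. In the fit with scan as a block, where Gp120 A alone carries the comparison, 12 of 36 were higher and the median was -0.10.

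GAA, which degrades glycogen, stood at 0.57, 0.54 and 1.39 on Gp120 A, B and C and at 0.14 and -0.24 on Control A and B. Gp120 C stood highest and the groups did not overlap. The difference was 0.88 (SE 0.40, adjusted p = 0.998), and with the block 0.66 (SE 0.25, adjusted p = 0.779). Its second probe was well above background on only 5 of 8 arrays and gave -0.31.

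GM2A, the activator that presents GM2 ganglioside to hexosaminidase, stood at 1.56, 1.37 and 1.98 on Gp120 arrays and at 0.47 and 1.07 on Control arrays (difference 0.87, SE 0.40, adjusted p = 0.998). PSAP, the precursor of the saposin activators, stood at 7.54, 6.96 and 7.56 on Gp120 arrays and at 6.83 and 6.67 on Control arrays (difference 0.61, SE 0.35, adjusted p = 0.998), and its second probe gave 0.76. Neither gene overlapped between the groups. With GAA they were the 3 of 36 members (8.33%) whose Gp120 arrays all lay above both Control arrays, against 5.49% of all genes.

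ATP6V1B2 was the pump subunit with the smallest p, at 5.0, 4.26 and 4.00 on Gp120 arrays against 5.62 and 4.83 on Control arrays. The difference was -0.81 (SE 0.41, adjusted p = 0.998), and with the block -0.58 (SE 0.19, adjusted p = 0.779). It was -0.33 with slide row as a block, -0.23 with scan as a block, and turned to 0.61 in the deposited table. ATP6V1A stood at 5.95, 5.90 and 5.73 on Gp120 arrays, all below both Control arrays (difference -0.18, SE 0.19, adjusted p = 0.998). On its other probes Gp120 and Control arrays overlapped. The members with every Gp120 array below both Control arrays were ATP6V1A, LIPA and NPC1, 3 of 36 (8.33%), against 7.46% of all genes. All 3 were also among those lower with TAT, but both comparisons share the 2 Control arrays. LIPA stood at 6.67, 6.71 and 6.55 on Gp120 A, B and C (difference -0.18, SE 0.19, adjusted p = 0.998).

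Of the 12 other V-ATPase subunits 10 had lower Gp120 means (median -0.18), led by ATP6V1C1 (-0.50, SE 0.19) and ATP6V0C, which forms the proton-carrying ring (-0.55, SE 0.22). Over all 17 subunits 14 were lower, with a median of -0.16, and 12 with the block (median -0.10). Within letters 13 of 17 were lower in A and 9 of 17 in B.

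The remaining members given on every array overlapped with Control. CTSC stood at 4.52, 5.41 and 4.65 on Gp120 arrays, with Gp120 A level with Control A (difference 0.37, SE 0.32, adjusted p = 0.998). LAMP1 stood at 7.65, 7.49 and 8.31 on Gp120 arrays (difference 0.02, SE 0.29, adjusted p = 0.998). CTSD stood at 7.27, 8.09 and 7.67, highest on Gp120 B (difference 0.38, SE 0.26, adjusted p = 0.998, and -0.03 with scan as a block). CTSB stood at 6.40, 7.17 and 6.91 and CTSS at 6.71, 7.17 and 6.86, with differences of 0.10 (SE 0.38) and 0.13 (SE 0.23, adjusted p = 0.998 each). Both cathepsins were highest of the 3 on Gp120 B, and Control B lay below all Gp120 arrays for each. TFEB stood at 3.90, 3.60 and 3.91, on both sides of Control (difference -0.04, SE 0.19, adjusted p = 0.998).

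Set directly against each other, the proteins gave lower means with TAT for most members: 28 of 36 had lower means on TAT than on Gp120 arrays (median -0.12), where 53.6% of all genes did (median -0.02). limma called 0 of 36 members and 0% of all genes without and with the block, and the mean of both proteins against Control gave 0 of 36 and 0% too. At an unadjusted p under 0.05 the fit without the block gave 1 member, ATP6V1H (2.73% of all genes), and with the block 3 lower, GAA, ATP6V1H and GM2A (3.72%), and 0 higher (4.49%). In same-letter pairs 21 of 36 members were lower in A, 26 in B and 29 in C, and 12 of 36 were lower in all 3 pairs, against 18.6% of all genes. Gp120 B and C came from the other scan. With scan as a block, which leaves Gp120 A to carry the comparison, 17 of 36 members were lower and the median was 0.01.

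ATP6V1H stood at 3.51, 3.65 and 3.44 on TAT A, B and C and at 3.69, 4.52 and 4.06 on Gp120 A, B and C. The groups did not overlap, and TAT minus Gp120 was negative in every pair, -0.18 in A, -0.88 in B and -0.62 in C. The difference was -0.56 (SE 0.24, adjusted p = 0.9999), and with the replicate block -0.56 (SE 0.21, adjusted p = 0.587). With scan as a block it was -0.16.

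GAA stood at 0.37, -0.62 and 0.40 on TAT arrays, each below all Gp120 arrays (difference -0.79, SE 0.36, adjusted p = 0.9999, and -0.52 with scan as a block). With the replicate block it had the smallest p of the members (SE 0.21, adjusted p = 0.579). GM2A stood at 1.07, 0.17 and 1.40 on TAT arrays, and TAT C passed Gp120 B (difference -0.76, SE 0.36, adjusted p = 0.9999). PSAP stood at 7.28, 6.27 and 7.23 on TAT arrays, lower than its Gp120 partner in all 3 pairs. The 4th smallest p was that of ATP6V1A (difference -0.24, SE 0.17, adjusted p = 0.9999). Members with no overlap were ATP6V1H, GAA and LIPA, 3 of 36 (8.33%) lower on TAT, against 3.62% of all genes, and 0 higher, against 3.06%.

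The replicate letters separated the members more clearly than the proteins did. With the group in the fit, the letter accounted for a median of 38.8% of a member's sum of squares, and the group, taken after the letter, for 18.8%. An F test over letters A, B and C (limma) called 4 of 36 members (11.1%), GLA, HEXA, ATP6V1B2 and SMPD1, against 17.9% of all genes.

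HEXA, the alpha subunit of the hexosaminidase that degrades GM2 ganglioside, stood at 0.85, 1.84 and 2.26 on TAT A, B and C, at 0.61, 2.64 and 3.17 on Gp120 A, B and C and at 0.62 and 1.52 on Control A and B. In each group A was lowest and C, where present, highest. A minus C was -1.88 (SE 0.32, adjusted p = 0.015) and A minus B -1.31 (SE 0.27, adjusted p = 0.027), and the F test gave an adjusted p of 0.021. HEXA also had the largest Gp120 minus Control difference of the members (1.07, SE 0.77, adjusted p = 0.998), with groups that overlapped, and with the block it was 0.66 (SE 0.32, adjusted p = 0.779). Only Gp120 B and C, the arrays of the other scan, lay above both Control arrays. Gp120 A (0.61) lay below the Control mean (a level of 1.07), so that with scan as a block the difference was negative.

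GLA followed the same order, with -0.38, 0.14 and 0.59 on Gp120 A, B and C beside the TAT and Control values above (A minus C -1.14, SE 0.18, adjusted p = 0.013). ATP6V1B2 ran the other way, with a mean over groups of 5.17 in A, 4.57 in B and 4.00 in C (A minus C 0.99, SE 0.19, adjusted p = 0.022). SMPD1, the acid sphingomyelinase, stood at 3.86, 3.09 and 3.35 on TAT arrays, at 3.67, 2.85 and 3.68 on Gp120 arrays and at 4.15 and 3.16 on Control arrays, lowest in B throughout (A minus B 0.86, SE 0.17, adjusted p = 0.025).

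Between A and B 1 member was called higher (SMPD1, against 7.28% of all genes) and 2 lower (GLA and HEXA, against 8.42%). Between A and C 1 was higher (ATP6V1B2, against 7.99%) and 3 lower (GLA, GLB1 and HEXA, against 9.15%), and between B and C 0 were higher (1.08%) and 0 lower (0.415%). The calls rest on few arrays: without TAT C or without Gp120 C 0 of 36 members passed the F test. Letter C has no control. All A arrays lay in row 1 of the slide and all C arrays in row 2, so that letter and row cannot be told apart for A against C.

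**Figure D4:**
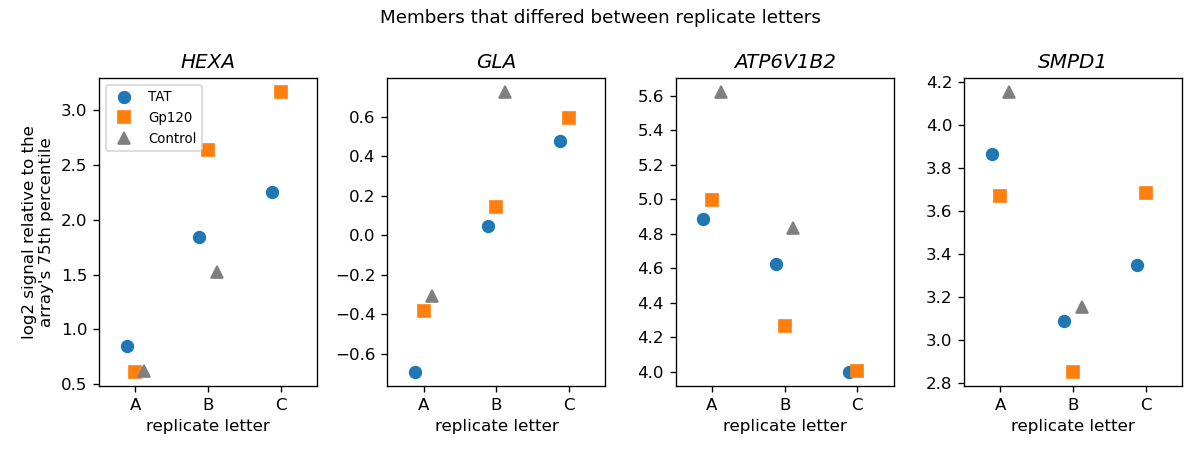
Levels of HEXA, GLA, ATP6V1B2 and SMPD1 by replicate letter (x axis), with TAT as circles, Gp120 as squares and Control as triangles (y axis, log2 signal relative to the array's 75th percentile, each panel on its own scale). HEXA and GLA lie lowest in A, ATP6V1B2 lies highest in A, and SMPD1 lies lowest in B.

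Further lysosomal lists gave no calls in any comparison with Control. Of 26 other lysosomal enzymes 25 were tested, 11 with higher TAT means (median -0.01) and 19 with higher Gp120 means (median 0.06). HGSNAT, which acetylates heparan sulfate, had differences of 0.77 (SE 0.42) with TAT and 0.86 (SE 0.42) with gp120. Of 17 other membrane proteins and transporters 7 were higher with TAT (median -0.05) and 11 with gp120 (median 0.08), and OSTM1, the partner of the chloride exchanger CLCN7, stood at -0.77 (SE 0.29) with gp120. Of 23 genes of delivery, regulation and autophagy 6 were higher with TAT (median -0.14) and 12 with gp120 (median 0.04). GNPTAB, which begins the mannose 6-phosphate tag of hydrolases, stood at -0.48 (SE 0.29) with TAT. Of 6 protease inhibitors 4 were tested, 3 with higher means in each comparison, and SERPING1, the C1 inhibitor, had the smallest p (1.33, SE 0.78, with TAT).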

How the data were processed

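Each of the 8 samples is 1 Agilent array (1 colour, Cy3). Per the file headers the authors' intensity values were made with Agilent Feature Extraction 11.5.1.1, in the build HGSC Btau_3.1. They were not scaled between arrays. The log2 values of the deposited table stand under gene names, by steps not given in the sources used here. Once each column was shifted, 98.0% (Gp120 B) and 97.8% (Gp120 C) of its values lay within 0.02 of the scanner values, against 8.5% to 15.2% on the other 6 arrays (column medians -3.33 to -3.18), so it served as an alternative, its centring and scale for the 6 arrays unknown. No other column of sample values was used.

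Processed signals were log2 transformed and the array's 75th percentile subtracted. Each array lost 4 to 37 outlier spots, and spots of the same probe were averaged. A probe was kept if well above background on all arrays of 1 or more groups (31198 of 51282), and 31153 of these lacked no value. All 91 member probes passed. Genes were named by the file's gene name, accession, symbol or synonym against RefSeq, and 15780 probes stayed unnamed. The test was limma's moderated test (lmFit, then eBayes, in limma 3.58.1 under R 4.3.3), two-sided, over all 8 arrays together (no block, Benjamini-Hochberg over 12035 genes, threshold 0.05). All p-values in the text are limma's. The scripts were tested on simulated data. Files were read in Python 3.11.15 (pandas 2.3.3, numpy 2.4.6) and in R with data.table, version 1.17.8, and drawn with matplotlib 3.10.9. The number of arrays limits the precision.

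The members, their roles and the further lists were chosen with earlier results of these data known. Values on every array are given for 4 members per comparison and for the letter test, those of smallest p, and for LAMP1, CTSD, CTSB, CTSS, ATP6V1A and TFEB. Other members are given by range, and from a further list at most the genes with the 2 smallest p. Single values outside this rule were added after the values were seen.

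The letters were taken as pairing the samples, because arrays of 1 letter deviated together over all genes. There every same-letter pair had r between 0.377 and 0.740, and pairs of unlike letters between -0.654 and 0.417. Over the members alone the letter B pairing with Control did not show. Control B had r of -0.155 with TAT B and -0.161 with Gp120 B, against 0.786 with TAT C and 0.509 with Gp120 C. The remaining same-letter pairs had member r of 0.271 to 0.774. With 2 controls their deviations mirror each other. Alternatives were the letter, slide row or scan as a block, 1 row or scan alone, normexp, quantile or median scaling, other probe filters, the mean of probes, the deposited table, only the 2 groups compared and each array left out. No promoter or protein sequences were analysed here.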

Additional observations from a re-analysis of the deposited data

How the results depend on the processing

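In every fit run, without and with the replicate block, 0 members passed the threshold between groups. Over all genes the deposited table gave 4 genes for TAT minus Control, 4 for Gp120 minus Control, 16 for TAT minus Gp120 and 1 for the mean of both proteins, and leaving out single arrays 0 to 1, 0 to 1, 0 to 4 and 0 to 1.

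The median TAT minus Control difference of the members was -0.13 with the replicate block, -0.16 with slide row as a block, -0.12 within row 1 and -0.11 to 0.0297 without single arrays. For Gp120 minus Control it was -0.10 with scan as a block, within row 1 and within scan 2, which all rest on Gp120 A, -0.0521 with slide row as a block (15 of 36 higher), and 0.01 (without Control B) to 0.209 (without Gp120 A) without single arrays, against 0.095.

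For the letter test 1066 genes passed with no filter on dim probes, 902 with scan as a block, 1107 within TAT and Gp120 arrays (a setting chosen after seeing the data) and 563 to 1533 without single arrays, against 2156. The counts of members were 7 with normexp, 0 with no filter, 2 with scan as a block, 2 within TAT and Gp120 arrays and 0 to 3 without single arrays, against 4.

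Several differences changed sign, most of them under 0.4 in size, but also those of ATP6V1B2 and HEXA between gp120 and Control. That of HEXA between TAT and gp120 turned too. With scan as a block Gp120 A (0.61) carried both HEXA comparisons, below the Control mean (1.07) and the TAT mean (1.65). With slide row as a block TAT minus Control was -0.12 for CTSB and -0.0247 for CTSD, and Gp120 minus Control -0.11 for LAMP1, -0.0726 for CTSB and 0.0708 for TFEB. With scan as a block, within row 1 and within scan 2 Gp120 minus Control was -0.14 for LAMP1, -0.32 for CTSB, -0.0317 for CTSD, -0.0735 for CTSS and 0.0601 for TFEB. For LAMP1 it was -0.17 with the replicate block and -0.23 with quantile scaling. With normexp it was -0.0019 for CTSB and 0.0601 for TFEB. With the mean of probes TAT minus Control was -0.11 for CTSB and Gp120 minus Control 0.0114 for TFEB. In the deposited table TAT minus Control was 0.0729 for LAMP1 and -0.0548 for CTSB, Gp120 minus Control 0.77 for TFEB and 0.61 for ATP6V1B2, and TAT minus Gp120 0.0855 for ATP6V1A. Without single arrays TAT minus Control ran from -0.48 to 0.58 for CTSB and from -0.0221 to 0.39 for CTSS, and Gp120 minus Control from -0.22 to 0.19 for LAMP1, -0.43 to 0.63 for CTSB, -0.0786 to 0.34 for CTSS and -0.0913 to 0.0667 for TFEB. The causes were not tested. The TAT minus Control median of the 17 V-ATPase subunits lay below that of all genes in 29 of 29 other settings, at -0.49 to -0.24.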

Other observations

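The array with the highest level of a member was Gp120 C for 13 of 36 members, among them 5 of 9 glycosidases and sulfatase and 4 of 6 lipid hydrolases and carriers. Control A was highest for 8 members. The lowest level of the chosen probe lay on Control B for 10 members, of which 9 were proteases, and on TAT B for 8 members.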
